A study of Mus musculus with 15 samples.

Results

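A set of 6 transcription factor genes that are best known from organs other than the intestine was followed through mouse colon cancer organoids: Tlx1, Tfap2b, Irx4, Dach1, Tbx2 and Tbx4. They are 6 of 54418 genes in the deposited count table, found there by Ensembl gene ID, and they were picked because each is on in some of the 5 groups and near 0 in others. The levels of the 6 genes over the groups are therefore a description, and no test of them is given. Tests are given only for relatives, partners, reported targets and chromosomal neighbours, which the choice of the 6 did not use. The lists themselves were drawn up with earlier results of these data known, so the tested genes are not a blind choice.

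The study grew organoids of genotype AKP from tumours in C57Bl6 recipient mice, put them back into the colon and derived organoids again, over 3 rounds. AKP is the label on all 15 libraries, so every group carries it. Met1, Met2 and Met3 are organoids derived from metastases in rounds 1, 2 and 3 (the design text places the metastases in the liver), and Primary2 and Primary3 are organoids derived from primary tumours in rounds 2 and 3. A first-round primary group was not analysed here, and each of the 5 groups has 3 libraries. Met1 against primary therefore sets round 1 against rounds 2 and 3, and tumour site and round cannot be told apart there. The labels do not say whether the 3 libraries of a group come from separate mice, organoid lines or cultures, so the spread behind every p-value is that between these libraries and may be technical. The age of the mice is not given in the sources used here. "Metastasis against primary" below means Met2 and Met3 (6 libraries) against Primary2 and Primary3 (6 libraries).

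These genes encode DNA-binding proteins that pattern organs in the embryo. Tlx1 is a homeobox factor needed to form the spleen and is an oncogene in T-cell leukaemia when it is switched on there. Tfap2b belongs to the AP-2 family, whose members act in neural crest, skin and kidney. Irx4 is an Iroquois homeobox factor of the heart ventricle. Dach1 acts with Eya proteins in eye, limb and kidney development and binds corepressors. Tbx2 and Tbx4 are T-box factors: Tbx2 mainly represses transcription, in heart and limb among other places, and Tbx4 acts in hindlimb and lung mesenchyme.

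Total counts per library ran from 14122203 to 21306543, and 1 count corresponded to 0.0457 to 0.0734 CPM (a count relative to the total of its library, scaled by TMM normalisation factors). All 6 genes passed the low-count filter, each through the groups in which it is high, among 14925 genes that passed. Epithelial markers summed to between 5520 and 14900 CPM, with 7 of 7 detected in every group, and the 6 colon epithelium markers to between 154 and 2980 CPM. Met2 rep 1 stood apart from the other 14 libraries: on the third principal component it lay at -53.2, against -3.52 to 23.2 for the rest. On the second component it lay at 33.7, near the Met1 libraries (36.5 to 55.2), with Met2 rep 2 at -1.4 and rep 3 at -9.48. Its correlation with the other libraries was 0.872 to 0.918, highest with Met1 rep 1. Met2 rep 1 had the lowest sums of epithelial markers (5520 CPM) and of colon epithelium markers (154 CPM). It was also the library with the highest summed fibroblast markers, 5.16 CPM against 0.701 or less elsewhere, with Dcn at 34 counts and Col3a1 at 25, while Lum was at 0 in every library. Results that rest on it are given with and without it. In bulk RNA, fewer cells expressing a gene and less RNA per cell cannot be told apart.

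The promoter sequences of 4 of the genes are shown because their mRNAs differed widely between groups. Tlx1 and Tfap2b were high in the primary groups, and Dach1 was higher in the metastasis groups. Irx4 was high in Met1 and in Met2 rep 1 and at 0 counts in Met3. RefSeq promoter entries (GRCm38.p6) matched 5 of the 6 genes, and each sequence runs from base 250 to base 51 before the RefSeq start, 5′ to 3′ on the strand of the gene, with CpG dinucleotides in capitals. The windows are chr19:45150465-45150664 for Tlx1, chr1:19211804-19212003 for Tfap2b and chr13:73260247-73260446 for Irx4, all on the plus strand, and chr14:98169816-98170015 on the minus strand for Dach1.
Tlx1: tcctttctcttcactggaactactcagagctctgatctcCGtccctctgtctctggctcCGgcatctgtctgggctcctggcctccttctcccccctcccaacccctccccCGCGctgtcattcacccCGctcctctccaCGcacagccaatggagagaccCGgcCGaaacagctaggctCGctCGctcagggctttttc
Tfap2b: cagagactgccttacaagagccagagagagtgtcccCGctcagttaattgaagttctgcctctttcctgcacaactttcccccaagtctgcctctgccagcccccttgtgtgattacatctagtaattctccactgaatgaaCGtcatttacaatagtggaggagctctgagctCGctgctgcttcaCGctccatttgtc
Irx4: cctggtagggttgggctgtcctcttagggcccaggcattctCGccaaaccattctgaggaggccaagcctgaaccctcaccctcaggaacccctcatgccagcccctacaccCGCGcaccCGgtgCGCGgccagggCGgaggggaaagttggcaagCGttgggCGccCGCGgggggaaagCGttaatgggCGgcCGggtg
Dach1: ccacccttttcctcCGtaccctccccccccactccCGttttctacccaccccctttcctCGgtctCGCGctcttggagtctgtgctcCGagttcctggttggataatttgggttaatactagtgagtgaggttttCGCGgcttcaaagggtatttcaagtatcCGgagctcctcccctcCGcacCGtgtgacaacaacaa

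Irx4 held 14 CpG in its 200 bases, Dach1 11, Tlx1 10 and Tfap2b 4, and the window of Tbx4 held 3. Over the 32817 promoters of the table the median was 4. Fewer CpG than in Irx4, Dach1 and Tlx1 were found in 80.2%, 73.3% and 70.8% of promoters, and fewer than in Tfap2b and Tbx4 in 45.8% and 36.4%. Tlx1 and Tfap2b, high in the primary groups, held fewer CpG than Irx4 and Dach1, but Tlx1 and Dach1 were close (10 and 11). Tbx4, with the fewest, was higher in every Met3 library than in every Primary3 library. With so few genes these numbers are a description only. The Tfap2b and Tbx4 windows lie inside the GENCODE gene, because the RefSeq starts are 3140 and 10343 bases from the GENCODE starts. Both strands were searched for short motifs. The GATA letters AGATAA occur in 8.42% of all promoters and the related letters TGATAA in 6.74%. The AP-2 letters GCCNNNGGC occur in 10.6% of them and the T-box letters GGTGTGA in 2.72%. The homeodomain letters TAATTA occur in 4.2% and the CCAAT box in 28.4%. The single match in the 5 windows was a CCAAT in Tlx1, 103 to 99 bases before its start.

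Tlx1 was high in both primary groups and absent or nearly so in all 3 metastasis groups. Its counts were 433, 129 and 376 in Primary2 (23.3, 5.98 and 17.8 CPM) and 477, 360 and 625 in Primary3 (32.1, 23.1 and 36.8 CPM). Met1 held 0, 0 and 1 count, and the 3 libraries of Met2 and the 3 of Met3 held 0. No metastasis library came near any primary library, whereas the highest Primary2 library lay just above the lowest Primary3 library, so the order of Primary3 (30.7 ± 6.96 CPM, SD, n = 3) over Primary2 (15.7 ± 8.84) did not exceed their spread. Per kilobase of exon, the Primary3 level was 14.4 CPM, above 77.1% of the genes that passed the filter. Tlx1 was nearly missing in Met1 as well. Pooled over libraries, Met1 was lower than the 6 primary libraries of rounds 2 and 3 by a ratio of 1340. The exact 95% interval was 240 to 53000, for counting error only. Taken round by round, it was at least 225-fold lower in Met2 than in Primary2 and at least 565-fold lower in Met3 than in Primary3, computed against a floor of 3 counts over the group. Tlx1 (ENSMUSG00000025215) lies on chromosome 19 from 45150680 to 45156943 on the plus strand, with 6 distinct exons. The antisense gene Tlx1os overlaps it and held 7, 0 and 3 counts in Primary2, 5, 6 and 6 in Primary3 and 0 in all 9 metastasis libraries. The library kit keeps strand, but whether the counting used strand is not given in the sources used here, so reads of this pair cannot be told apart with certainty.

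Tfap2b had the same division and the steadiest level of the 6. Its counts were 178, 227 and 370 in Primary2 (9.56, 10.5 and 17.5 CPM) and 200, 190 and 195 in Primary3 (13.5, 12.2 and 11.5 CPM). All 3 libraries of Met1 and of Met2 held 0 counts, and Met3 held 0, 0 and 2. The group means, 12.5 ± 4.35 CPM in Primary2 and 12.4 ± 1.01 in Primary3 (SD, n = 3), did not differ beyond their spread. In Primary3 the coefficient of variation was 8.14%, close to the 7.16% that counting error alone gives. Met1 was at least 253-fold below the primary libraries and Met2 at least 186-fold below Primary2, and Met3 was below Primary3 by a ratio of 339 (93.5 to 2810). On the per-kilobase scale Tfap2b was lower than Tlx1, at 1.98 CPM per kilobase in Primary2 against 7.33. Tfap2b (ENSMUSG00000025927) lies on chromosome 1 from 19208914 to 19238576 on the plus strand.

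Summed markers of some other cell types also differed between the primary and metastasis libraries. The 6 neural crest and glia markers summed to 1.48 to 4.69 CPM in primary libraries and 0.265 to 1.04 CPM in metastasis libraries. S100b was at 0.521 to 3.08 CPM in primary libraries and at 0.469 CPM or less in the others, and Sox10 and Elavl4 were at 0 in all 15. The 6 leukocyte markers summed to 1.85 to 8.16 CPM against 0.105 to 0.915. Csf1r made up most of that sum in the primary libraries, at 1.67 to 7.9 CPM, and Lyz2 was at 0 in all 15. Itgam averaged 0.488 and 0.275 CPM in Primary2 and Primary3, against 0.0762, 0.116 and 0.129 in Met1, Met2 and Met3. Ptprc did not share that division, at 0.157 and 0.0635 CPM against 0.179, 0.158 and 0.128. Cd3e and Cd79a averaged 0.0552 CPM or less in every group. Tlx1 and Tfap2b were at 5.98 to 36.8 and 9.56 to 17.5 CPM in the primary libraries. The part of these markers in the Tlx1 and Tfap2b levels was not tested. The 6 hepatocyte markers summed to 6.01, 1.38 and 3.11 CPM in Met1 and to 0.129 to 1.02 CPM in every other library, with Alb at 113, 19 and 52 counts in Met1 and Serpina1a at 0 there. Their part in the Met1 values given below was not tested.

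Irx4 was high in the first metastasis round and gone in the third. Its counts were 114, 74 and 984 in Met1 (5.71, 3.92 and 45 CPM), 207, 2 and 2 in Met2 (13.9, 0.129 and 0.147 CPM) and 0 in each library of Met3. The primary libraries held 5, 9 and 0 counts in Primary2 and 1, 1 and 0 in Primary3. Met1 rep 3 and Met2 rep 1 carried most of the signal, and the spread within a group was wide: the highest Met1 library was 11.5 times the lowest, a coefficient of variation of 127% against 5.06% from counting. Met1 averaged 18.2 ± 23.2 CPM and Met2 4.72 ± 7.93 (SD, n = 3), so their order did not exceed the spread. All 3 Met1 libraries were above all 6 primary libraries, by a pooled ratio of 131 (80.4 to 230), and Met3 was at least 354-fold below Met1. In metastasis against primary the direction hung on 1 library: pooled Irx4 was 14.5 times higher in metastasis (8.71 to 25.8), and without Met2 rep 1 it was 3.1 times lower (0.999 to 12.7). Irx4 (ENSMUSG00000021604) lies on chromosome 13 from 73260479 to 73269608 on the plus strand.

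Dach1 was detected in all 9 metastasis libraries and stayed at 2 counts or fewer in the 6 primary libraries. Its counts were 45, 27 and 33 in Met1 (2.25, 1.43 and 1.51 CPM), 309, 7 and 4 in Met2 (20.7, 0.451 and 0.294 CPM) and 26, 9 and 25 in Met3 (1.4, 0.519 and 1.31 CPM). Primary2 held 2, 0 and 1, and Primary3 held 0, 0 and 1. No metastasis library overlapped a primary library, but levels were low apart from Met2 rep 1, which held most Dach1 counts of its group. The highest group mean was that of Met2, 7.15 ± 11.7 CPM, followed by Met1, 1.73 ± 0.454, and Met3, 1.08 ± 0.485 (SD, n = 3). That place rests on Met2 rep 1, since the other 2 Met2 libraries lay below every Met1 and Met3 library. Pooled Dach1 was 47 times higher in Met1 than in the primary libraries (17.8 to 176) and 51.7 times higher in Met3 than in Primary3 (8.93 to 2080). In Met2 against Primary2 the ratio of 148 (50.3 to 724) came down to 7.72 (2.04 to 43.1) without Met2 rep 1, and in metastasis against primary 104 (40.4 to 385) came down to 22.9 (8.57 to 86.5). Met2 rep 1 is also the library with raised fibroblast markers, and their part in its Irx4 and Dach1 counts was not tested. Dach1 (ENSMUSG00000055639) covers chromosome 14 from 97786853 to 98169765 on the minus strand, and 2 small genes annotated within it, a small nuclear RNA and a pseudogene, held 0 counts in every library.

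**Figure D1:**
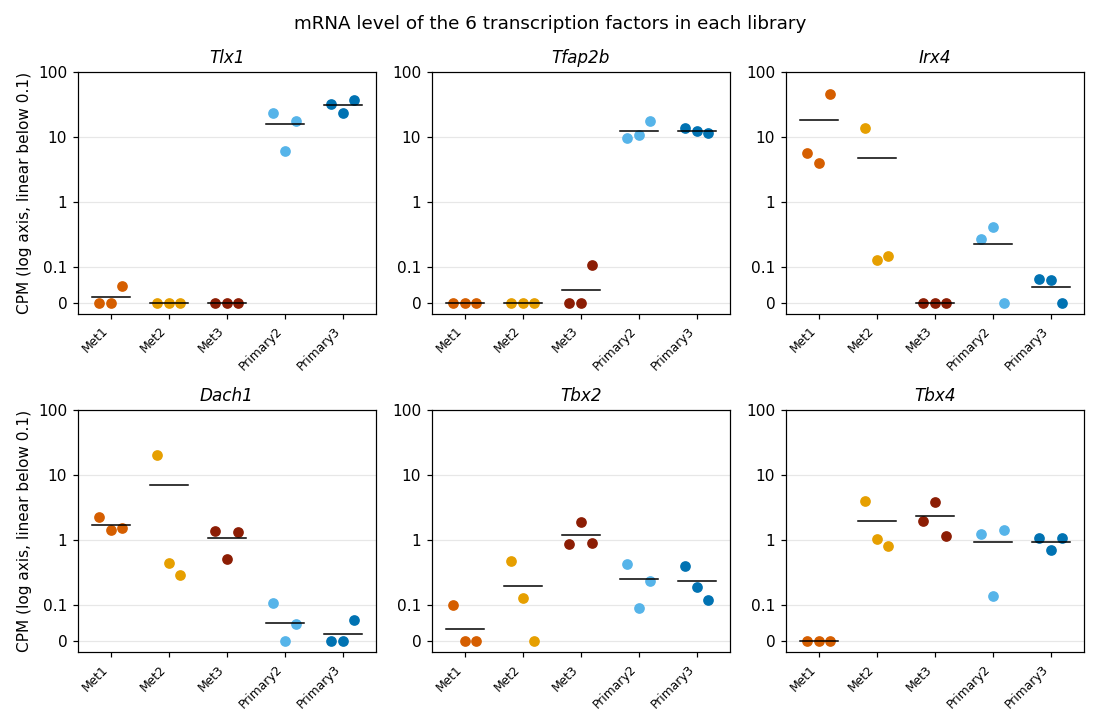
Level of Tlx1, Tfap2b, Irx4, Dach1, Tbx2 and Tbx4 in each library (points, CPM on a log axis that is linear below 0.1) for the 5 groups on the x axis, with the group mean as a black bar. Tlx1 and Tfap2b lie between 5.98 and 36.8 CPM in the 6 primary libraries and at 0.105 CPM or less in the 9 metastasis libraries, while Irx4 is widely spread in Met1 and Met2 and Dach1 in Met2.

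Tbx2 was the weakest of the 6. Its counts were 16, 33 and 17 in Met3 (0.862, 1.9 and 0.891 CPM). Met1 held 2, 0 and 0 counts, Met2 held 7, 2 and 0, Primary2 held 8, 2 and 5 and Primary3 held 6, 3 and 2. All 3 Met3 libraries were above the other 12, while Primary2 (0.253 ± 0.169 CPM), Primary3 (0.238 ± 0.149) and Met2 (0.199 ± 0.242; SD, n = 3) could not be ordered beyond their spread. Pooled Tbx2 in Met3 was 36.4 times that in Met1 (9.7 to 307) and 5.17 times that in Primary3 (2.71 to 10.9). Even in Met3, Tbx2 per kilobase exceeded only 14.3% of the genes that passed the filter.

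Tbx4, which lies 53.9 kb from Tbx2 on the same strand of chromosome 11, was the one gene of the 6 that was at 0 counts in Met1 and detected in every library of the other 4 groups. Its counts were 0 in each library of Met1, 60, 16 and 11 in Met2 (4.02, 1.03 and 0.808 CPM) and 36, 67 and 22 in Met3 (1.94, 3.87 and 1.15 CPM). Primary2 held 23, 3 and 30 counts (1.24, 0.139 and 1.42 CPM) and Primary3 held 16, 11 and 18 (1.08, 0.707 and 1.06 CPM). Met1 lay below every other library, and single libraries of the other 4 groups ran from 0.139 to 4.02 CPM. The group means were 2.32 ± 1.4 CPM in Met3 and 1.95 ± 1.79 in Met2. They were 0.948 ± 0.209 in Primary3 and 0.932 ± 0.693 in Primary2 (SD, n = 3). Neighbours in that order did not differ beyond their spread, except that every Met3 library was above every Primary3 library, by a pooled ratio of 2.39 (1.69 to 3.45). Met1 was at least 18.8-fold below the primary libraries, and Met3 at least 46-fold above Met1. In Met2 against Primary2 the pooled ratio was 2.16 (1.53 to 3.08), and 1.01 (0.616 to 1.63) without Met2 rep 1. Tbx2 (ENSMUSG00000000093) spans 85832551 to 85841948 and Tbx4 (ENSMUSG00000000094) 85886422 to 85916097. Pooled over libraries, both genes of the pair were highest in Met3 and lowest in Met1.

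The 6 genes gave several layouts over the groups: primary groups only (Tlx1 and Tfap2b), metastasis groups only (Dach1) and early metastasis (Irx4). Tbx2 was raised in Met3 only, and Tbx4 was missing in Met1 only. In metastasis against primary, 3 of the 6 did not overlap between the groups, where 12.2% of all genes that passed the filter did not overlap. The numbers were 4 of 6 in Met3 against Met1 (all genes 44.5%), 3 of 6 in Met2 against Primary2 (29.6%), 5 of 6 in Met3 against Primary3 (44.4%) and 5 of 6 in Met1 against primary (32.5%). Since the genes were chosen for these levels, the counts only describe the choice.

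Relatives, partners and reported targets of the 6 factors were taken from 14 lists holding 92 other genes, of which 47 passed the low-count filter and were tested with edgeR's quasi-likelihood test, with Benjamini-Hochberg adjustment over all 14925 genes. Changes printed with an SE are log2 values. In metastasis against primary, 24 of the 47 passed at an adjusted p under 0.05, 9 higher and 15 lower, where 30.4% of all genes passed (14.3% higher and 16.1% lower). Their median log2 change was -0.28, against 0.01 for all genes. In Met1 against primary 17 passed, 11 higher and 6 lower (all genes 29.6%, 14.9% higher and 14.7% lower), and 10 without Met1 rep 2. In Met3 against Met1 14 passed, 4 higher and 10 lower (all genes 23.4%, 11.6% higher and 11.8% lower), 9 without Met1 rep 2, Met1 rep 3 or Met3 rep 2, and 7 without Met3 rep 1. In Met3 against Primary3 14 passed, 7 in each direction (all genes 19.1%, 8.12% higher and 11% lower), 9 without Primary3 rep 1 or rep 3, and 7 without Met3 rep 1. In Met2 against Primary2 10 passed, 5 in each direction (all genes 11.8%, 5.5% higher and 6.35% lower), 6 without Primary2 rep 2 or Met2 rep 2, and 2 without Primary2 rep 1 or rep 3. A ribosomal RNA gene took 6.24 to 7.52% of counts in Met2 and 3.74 to 3.83% in Primary2, and its part in that comparison was not tested. The comparisons share libraries, and their values are given side by side only. The difference between the round 3 and the round 2 comparison passed for 0 of 14925 genes with edgeR (0%), and at an unadjusted p under 0.05 for 1817 genes, 4 of them among the 47. DESeq2 called 225 of all genes there, 1 of them among the 47.

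The closest relatives of Tlx1 were nearly silent. None of 9 Tlx and NK-like homeobox genes passed the low-count filter, 4 of them were at 0 in all 15 libraries, and Lbx1, 85.1 kb from Tlx1 on chromosome 19, was one of the 4. Among the AP-2 genes, Tfap2e was at 0 throughout and Tfap2c held at most 1 count in a library, so Tfap2b in the primary groups stood beside 1 expressed relative, Tfap2a. Tfap2a, which acts in skin and neural crest, held 77, 96 and 162 counts in Primary2, 156, 185 and 164 in Primary3, 229, 233 and 360 in Met2 and 363, 436 and 298 in Met3. Every one of the 6 Met2 and Met3 libraries was above every primary library in CPM, the opposite of Tfap2b, and Tfap2a rose by a log2 of 1.36 in metastasis against primary (SE 0.34, edgeR adjusted p = 0.00907, range over the alternatives 0.000378 to 0.0256). Met1 held less, 173, 66 and 35 counts, and Met3 was higher than Met1 by 2.13 (SE 0.49, adjusted p = 0.00917). Of 5 AP-2 cofactor genes, all tested, 2 passed in Met1 against primary (all genes 29.6%), 1 in each direction. The transcriptional coactivator Cited1 was at 2317, 2024 and 2960 counts in Met1 and rose there against primary by 4.45 (log2, SE 1, adjusted p = 0.0067). Kctd15, an inhibitor of AP-2 activity, held 10, 1 and 4 counts in Met1, and every primary library held 73 or more. It fell by 6.08 on the log2 scale in Met1 against primary (SE 1.31, adjusted p = 0.00562), and Met3 was higher than Met1 by 6.06 (SE 1.35, adjusted p = 0.00834).

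Among the other Iroquois genes, Irx1 and Irx6 were at 0 in all libraries, and Irx2, which lies in the same gene cluster as Irx4, held 11 counts in Met1 rep 1 and 0 elsewhere. Irx3 and Irx5 were tested. Irx5 held 34, 2 and 11 counts in Primary2, 3, 0 and 23 in Primary3 and 0 or 1 in each metastasis library. Its pooled ratio of primary to metastasis was 33.3 (8.88 to 280, adjusted p = 0.0121), and the call was lost without Primary3 rep 3 (adjusted p = 0.0663, the highest of a range from 0.00588). Dach2, the paralog of Dach1, was low and was higher in the metastasis groups, as Dach1 was. It held 33, 5 and 8 counts in Met1, 21, 11 and 5 in Met2 and 7, 8 and 18 in Met3, against 3, 2 and 1 in Primary2 and 0 in each library of Primary3. Dach2 rose by 4.71 in metastasis against primary (SE 0.83, adjusted p = 0.00212, range 3.21e-05 to 0.00633) and was at least 9.48-fold higher in Met3 than in Primary3 (adjusted p = 0.0113). Of the 3 tested genes of the Dach and Ski list, Dach2 rose in that first comparison and Skil fell, and the Skil call (adjusted p = 0.0375) was lost in 9 of 17 alternatives (up to 0.111, from 0.00214). Of 3 tested genes on the list of the Eya network, 0 passed with edgeR in metastasis against primary, with 1 at an unadjusted p under 0.05 and 1 called by DESeq2. Of the 3 corepressor genes of Dach proteins, 2 passed in that comparison (all genes 30.4%), both lower. Hdac3, a histone deacetylase, fell by 0.48 in metastasis against primary (SE 0.09, adjusted p = 0.00245). Ncor1, its nuclear corepressor partner, fell by 0.28 (SE 0.07, adjusted p = 0.012), a call lost with no filter on low counts (0.0546, the highest of a range from 0.00112). Against primary it was higher in Met1, by 0.27 (SE 0.09, adjusted p = 0.0391, range 0.00639 to 0.156, lost in 9 alternatives), and it had a log2 change of -0.44 in Met3 against Met1 (SE 0.1, adjusted p = 0.0105).

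The T-box relatives moved most in Met3 against Met1, where 4 of 5 tested passed (all genes 23.4%), 1 higher and 3 lower. Tbx3, the paralog of Tbx2, held 145, 454 and 780 counts in Met1, 277, 12 and 10 in Met2 and 2, 6 and 2 in Met3. Primary2 held 48, 105 and 5 and Primary3 held 3, 0 and 5. Its high libraries were the Met1 libraries and Met2 rep 1, as for Irx4 and not for Tbx2. Tbx3 was higher in Met1 than in primary by 5.06 (log2, SE 1.07, adjusted p = 0.00514) and fell by 6.87 in Met3 against Met1 (SE 1.56, adjusted p = 0.00899). Tbx1, a regulator of pharyngeal development, held 228, 163 and 282 counts in Met1, 371, 3 and 185 in Met2 and 1, 2 and 7 in Met3. Primary2 held 19, 136 and 93 and Primary3 held 5, 17 and 25. In Met3 against Met1 the Tbx1 difference was -5.87 (SE 1.33, adjusted p = 0.00881). Tbx18, which acts in the mesenchyme of heart and ureter, had the reverse layout, with 2, 0 and 4 counts in Met1, 0, 70 and 2 in Met2 and 166, 174 and 393 in Met3, against at most 6 in any primary library. Tbx18 rose by 6.99 in Met3 against Met1 (SE 1.6, adjusted p = 0.00917) and by 6.26 in metastasis against primary (SE 1.19, adjusted p = 0.00219, range 1.52e-06 to 0.0291). In that second comparison Met2 libraries overlapped the primary ones.

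**Figure D2:**
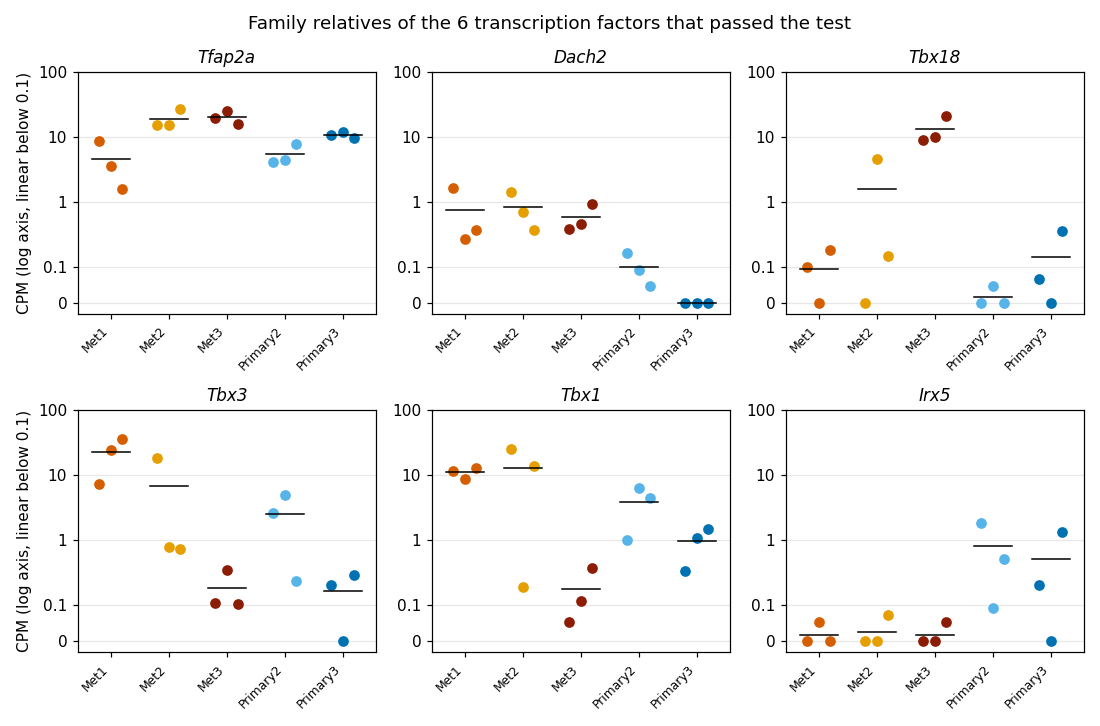
Level of 6 family relatives in each library (points, CPM on a log axis that is linear below 0.1) for the 5 groups on the x axis, with the group mean as a black bar. Tfap2a and Dach2 are above the primary libraries in Met2 and Met3, Tbx18 is highest in Met3 (166 to 393 counts), and Tbx3 and Tbx1 are high in Met1 and low in Met3. In Met2, Tbx1 is also high in rep 1 and rep 3, and Tbx3 in rep 1.

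Pbx and Meis proteins are homeodomain partners that bind DNA together with many homeobox factors. In metastasis against primary, 4 of 8 tested genes of this list passed (all genes 30.4%), 1 higher and 3 lower. Meis1 held 39, 26 and 0 counts in Met1, 21, 32 and 47 in Met2 and 92, 57 and 57 in Met3, against 2 or fewer in every primary library. It rose by 5.38 (SE 0.88, adjusted p = 0.000932, range 2.2e-08 to 0.00393), and in Met3 against Primary3 the pooled ratio was 59.2 (20 to 289, adjusted p = 0.00963). Pbx4 held 31, 33 and 60 counts in Primary2, 40, 38 and 52 in Primary3, 17, 5 and 9 in Met2 and 3, 5 and 14 in Met3, with no overlap between the groups in CPM, and fell by 2.13 (SE 0.4, adjusted p = 0.00191, range 3.8e-06 to 0.00648). Pbx3 fell by 0.58 (SE 0.15, adjusted p = 0.0109).

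Of 5 genes of the mesenchyme that surrounds the embryonic spleen and stomach, 2 were tested and 1 passed in metastasis against primary (all genes 30.4%). Foxf2, a forkhead factor of gut mesenchyme, held 188, 102 and 226 counts in Primary2 and 79, 88 and 63 in Primary3, against 1, 0 and 7 in Met1, 5, 17 and 0 in Met2 and 2, 6 and 16 in Met3. It was high in the same groups as Tlx1 and Tfap2b, and fell by 3.80 in metastasis against primary (SE 0.73, adjusted p = 0.00225) and fell by 5.58 in Met1 against primary (SE 1.11, adjusted p = 0.00375). The summed fibroblast markers were at 0.185 to 0.648 CPM in primary libraries, and 0 to 0.701 CPM in metastasis libraries other than Met2 rep 1. These sums rest on few counts, and their part in the Foxf2 level was not tested. Fhl1, a LIM-domain gene reported as a Tlx1 target in other cells, held 10, 1 and 85 counts in Primary2 and 140, 23 and 88 in Primary3 and 1 count over all Met2 and Met3 libraries. Its pooled ratio was 316 (56.4 to 12500, adjusted p = 0.00319), with overlap between single libraries, and Met1 held 22, 1 and 38. Aldh1a1, the other gene of that list, makes retinoic acid and did not pass. It held 118, 185 and 189 counts in Primary2, 151, 124 and 407 in Primary3, 139, 14 and 22 in Met2 and 254, 36 and 18 in Met3.

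Of 4 tested genes reported as AP-2 targets, 3 passed in metastasis against primary (all genes 30.4%), 1 higher and 2 lower. Mcam, a cell adhesion molecule, held 20, 36 and 37 counts in Primary2 and 23, 38 and 30 in Primary3, against 1 to 4 in each Met2 and Met3 library. It fell by 3.53 (SE 0.51, adjusted p = 0.000445, range 5.87e-08 to 0.00203). The receptor kinase Erbb3 rose by 0.80 (SE 0.22, adjusted p = 0.0154). Krt14, a basal keratin, fell by 2 (SE 0.6, adjusted p = 0.0234), and that call was lost without Met2 rep 3, Met3 rep 1 or Met3 rep 3 (adjusted p up to 0.0577, from 0.00421). Of 5 genes reported to be repressed by Tbx2, 4 passed in that comparison (all genes 30.4%), 2 higher and 2 lower. Tbx2 itself overlapped between the libraries compared there and was raised in Met3 only. The cell cycle inhibitor Cdkn1a rose by 1.22 (SE 0.3, adjusted p = 0.00861) and Cdkn2a, which encodes 2 further inhibitors, fell by 0.75 (SE 0.21, adjusted p = 0.0159). The Ndrg1 call was lost without Primary2 rep 3, Met2 rep 3 or Met3 rep 2 (adjusted p up to 0.0596, from 0.00558), and the Cdh1 call was lost in 11 of 17 alternatives (up to 0.107, from 0.0127). In Met3 against Primary3, 1 of the 5 passed (all genes 19.1%), Cdkn2a, which fell by 1.73 (SE 0.3, adjusted p = 0.00296). Cdkn1a averaged 88.5 CPM in Met3 and 47.5 in Primary3, and Ndrg1 751 and 232 CPM, without passing. Of 4 tested genes linked to T-box factors in limb, lung and heart, 1 passed in metastasis against primary (all genes 30.4%), Myl7, an atrial myosin light chain. It held 41, 91 and 114 counts in Primary3 and 1643, 939 and 249 in Met3. Between these groups it rose by 3.34 (SE 0.75, adjusted p = 0.0103). Of the 7 smooth and heart muscle markers, Des was at 0 in all libraries, and the cardiac troponin gene Tnnt2 was abundant. Tnnt2 was at 62.8, 210 and 215 CPM in Primary3 and 7.71, 41.8 and 10.2 CPM in Met3, lower where Myl7 was higher. That did not hold in Met1, where Tnnt2 was at 59.1, 203 and 167 CPM. Myl7 was higher there than in primary by 2.38 (SE 0.57, adjusted p = 0.00946), a call lost without Met1 rep 1 (0.0621). The part of Tnnt2 in the Myl7 result was not tested.

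**Figure D3:**
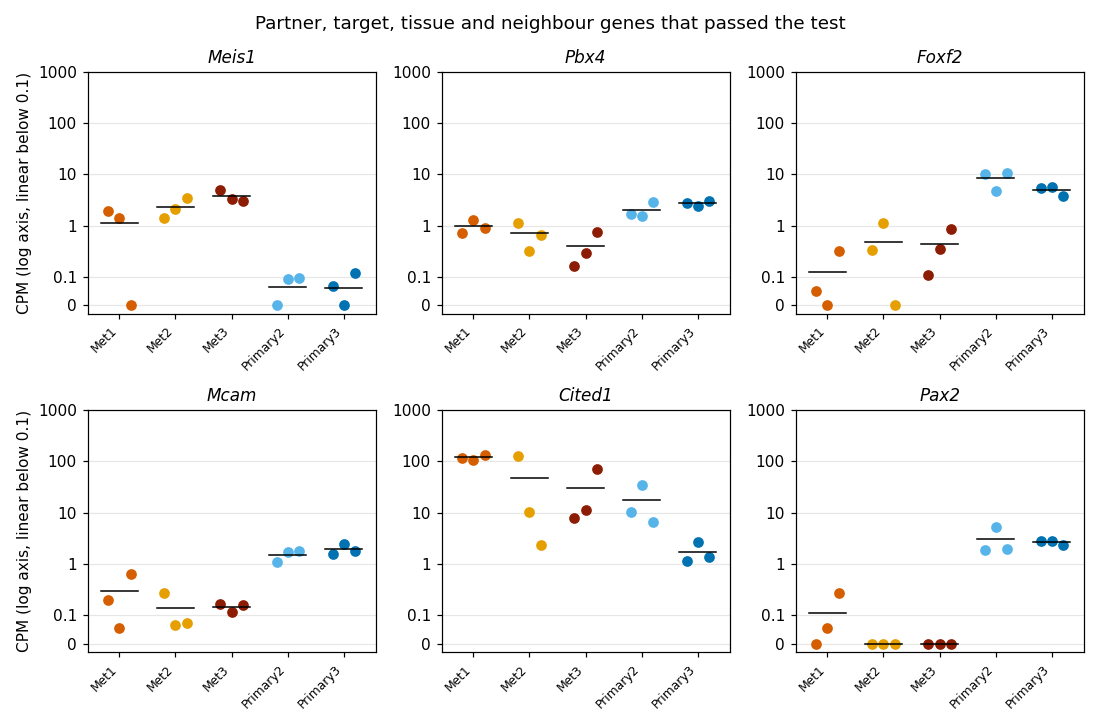
Level of 6 partner, target, tissue and neighbour genes in each library (points, CPM on a log axis that is linear below 0.1) for the 5 groups on the x axis, with the group mean as a black bar. Foxf2, Mcam and Pax2 are high in the 6 primary libraries, as Tlx1 and Tfap2b are, Meis1 is at 2 counts or fewer there, and Pbx4 is lower in Met2 and Met3 than in the primary libraries.

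Genes beside the 6 on their chromosomes were examined next: 28 other protein-coding genes start within 500 kb of one of them, and 22 were tested. In metastasis against primary 10 of 22 passed, 2 higher and 8 lower (all genes 30.4%). Of 12 tested neighbours of Tlx1, 6 passed, 1 higher and 5 lower. Pax2, a paired-box factor of kidney and ear that starts 394.6 kb before Tlx1, shared the Tlx1 layout. It held 35, 113 and 41 counts in Primary2, 41, 43 and 39 in Primary3, 0, 1 and 6 in Met1 and 0 in each library of Met2 and Met3. Pax2 was at least 94.8-fold lower in metastasis against primary (adjusted p = 0.000391, range 5.13e-13 to 0.00148), and in Met1 against primary it fell by 4.56 (SE 0.87, adjusted p = 0.0062).

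Of the 8 genes between Pax2 and Tlx1, all tested, 4 fell, 1 rose and 3 did not pass. Slf2, a DNA repair gene 219.5 kb from Tlx1, fell by 1.20 (SE 0.16, adjusted p = 0.000217), Sema4g, a semaphorin at 161.6 kb, by 1.93 (SE 0.48, adjusted p = 0.00883), and the sideroflexin gene Sfxn3 at 103.2 kb by 1.15 (SE 0.15, adjusted p = 0.000247). Kazald1, a secreted protein gene and the nearest at 75.4 kb, fell by 2.09 (SE 0.44, adjusted p = 0.00379), while the mitochondrial ribosome gene Mrpl43 at 144.2 kb rose by 0.38 (SE 0.11, adjusted p = 0.0168). In Met1, Tlx1 was as low as later, but none of these 4 falling genes was called lower there against primary. Of the 12 tested neighbours 2 passed in that comparison (all genes 29.6%), Pax2 lower and Sema4g higher. Slf2 averaged 49.4 CPM in Met1, against 57 in Primary2 and 45.6 in Primary3, and Sfxn3 20.3 against 21.5 and 23. Sema4g rose by 1.58 in Met1 against primary (SE 0.53, adjusted p = 0.0382, lost in 8 of 14 alternatives). It held 249, 622 and 141 counts in Met1, 61, 163 and 141 in Primary2 and 31, 40 and 9 in Met3. Sema4g fell by 3.54 in Met3 against Met1 (SE 0.7, adjusted p = 0.00483).

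Around Irx4, 3 of 6 tested genes passed in metastasis against primary (all genes 30.4%). The lipid enzyme gene Lpcat1 fell by 1.44 (SE 0.37, adjusted p = 0.0114) and Clptm1l rose by 0.47 (SE 0.09, adjusted p = 0.00225). Tert, the telomerase catalytic subunit, fell by 1.41 (SE 0.44, adjusted p = 0.0285). The Tert call was lost without any 1 of 7 libraries (adjusted p up to 0.067, from 0.00094): Primary2 rep 2 and rep 3, Met2 rep 2 and rep 3, Primary3 rep 1, and Met3 rep 1 and rep 2. Tfap2d, 105.9 kb from Tfap2b, did not pass the low-count filter, and no other protein-coding gene starts within 500 kb of Dach1. Around the Tbx2 and Tbx4 pair 1 of 3 tested genes within reach of Tbx2 passed, Ints2, which fell by 0.39 (SE 0.13, adjusted p = 0.0407), a call that was lost in 11 of 17 alternatives (adjusted p up to 0.143, from 0.017). In Met1 against primary, where Tbx4 was at 0 counts, 0 of 3 tested genes near Tbx4 passed with edgeR, with 2 at an unadjusted p under 0.05 and 0 called by DESeq2.

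**Figure D4:**
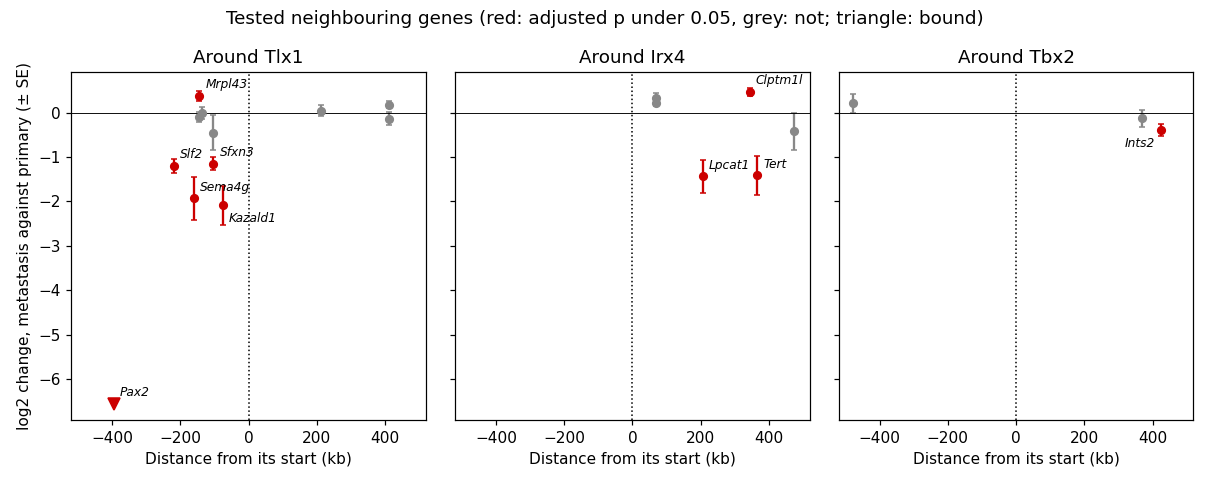
Change of tested neighbour genes in metastasis against primary (log2, bars are SE) by distance from the start of Tlx1, Irx4 or Tbx2 in kb, red where the adjusted p was under 0.05 and grey elsewhere. Pax2, with 0 counts in the 6 metastasis libraries, is a triangle at its bound of 94.8-fold, and 5 of the 6 red genes around Tlx1 lie below 0.

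The genes most like each factor over the 15 libraries are given by Pearson's r of log2 CPM, as a description without a test, since the libraries share groups, depth and scaling. Tlx1 and Tfap2b were most like each other (r = 0.986), although they lie on chromosomes 19 and 1. That order depends on the measure: with a prior count of 0.5 Thbs3 was closest to Tlx1 (0.983 against 0.981 for Tfap2b), and by Spearman's rho Tfap2b ranked 52 for Tlx1, Thbs3 243 and Spn 1014. By Pearson's r with the prior count of 2, Thbs3, a thrombospondin of the matrix, came next for both (0.98 and 0.974), then Spn, a sialoglycoprotein of leukocytes, for Tlx1 (0.975) and the receptor gene Gpr141 for Tfap2b (0.972). For Irx4 the closest were the adhesion gene Mpzl2 (0.936), the ubiquitin ligase gene Rnf149 (0.931) and Wif1, a secreted Wnt inhibitor (0.925). Wif1 held 480, 43 and 367 counts in Met1, 429, 6 and 2 in Met2 and 0 in each library of Met3, the same high libraries as Irx4. Dach1 was closest to Mllt3 (0.935), Jarid2, a Polycomb subunit (0.931), and the transporter gene Slc16a4 (0.924). Tbx2 was closest to the RNA helicase gene Ddx5 (0.903), Mbip (0.875) and Rbm48 (0.849), which like Tbx2 had their lowest group mean in Met1 and their highest in Met3 but spanned a far narrower range. Ddx5 averaged 735 CPM in Met1 and 884 in Met3, and Rbm48 6.08 and 11.6 CPM. Tbx4 was closest to Chil5 (0.885), Hist1h2bj (0.882) and the thioredoxin gene Txn1 (0.881), and Tbx2 was not among its 3 closest genes.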

How the data were processed

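RNA of 15 organoid libraries was sequenced after poly(A) selection with a strand-keeping kit, per the labels' protocols. The values are estimated counts per gene, which the authors deposited for all libraries in one table. Salmon 1.3.0 and the mm10 build are named per the submitters' processing notes, while the sources used here do not state the annotation release or strand setting. The deposited estimated counts are whole numbers and were used without rounding. Of 54418 IDs, 54096 matched GENCODE M21.

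All 15 libraries were fitted together in edgeR 4.0.16 (R 4.3.3) with filterByExpr by group, TMM factors, glmQLFit and glmQLFTest, with 1 mean per group. Adjusted p is Benjamini-Hochberg over 14925 genes, called under 0.05. CPM use TMM factors. The common dispersion was 0.118. Pooled ratios divide summed counts by summed library sizes, with exact 95% binomial intervals, and a group at 0 is set to a floor of 3 counts. Both cover counting error only.

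The 6 genes and all lists were chosen with earlier results of these data known. Named genes are the 6, the 3 most alike of each (Pearson r of log2 CPM, prior count 2), up to 4 called genes per list by smallest p, and called neighbours; the 8 marker lists hold cell types the cultures could contain. Genes at 0 or below the filter are named where they complete a family, and Tlx1os, Aldh1a1 and the per-library values of Wif1 were added after their values were seen. Alternatives were DESeq2 1.42.0, RLE size factors, no filter, only the groups compared, a replicate block and leaving out each library; ratios without Met2 rep 1 were added after seeing the data. The code was tested on simulated data.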

Additional observations from a re-analysis of the deposited data

How the results depend on the processing

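In metastasis against primary, 24 companion genes passed, and 18 to 27 when each library was left out, while neighbours numbered 10 (8 to 10). In Met1 against primary the counts were 17 (10 to 18) and 3 (2 to 5), in Met3 against Met1 14 (7 to 13) and 6 (3 to 5), in Met3 against Primary3 14 (7 to 11) and 7 (3 to 5), and in Met2 against Primary2 10 (2 to 11) and 3 (2 to 6). With DESeq2, Met2 against Primary2 gave 16 companions and 7 neighbours, Met1 against primary 5 neighbours, and the difference between rounds 1 companion in place of 0. With only the groups compared in the fit, Met2 against Primary2 gave 1 companion and 1 neighbour, and Met1 against primary 6 neighbours. The cause was not tested. Without Met2 rep 1, the Irx4 pooled log2 ratio, metastasis against primary, changed sign, to -1.63. Without that library, the Dach1 mean CPM in Met2 went from 7.15 to 0.372 and the Irx4 mean CPM in Met2 from 4.72 to 0.138. Deviations shared by same-numbered libraries of different groups did not settle whether these libraries are paired. Their r ran from -0.126 to 0.268 over 30 pairs, with 8 over 0.1, and 9 of 15 libraries matched their own number best. With the replicate number as a block, 23 companions passed in metastasis against primary, and 10 of the 108 calls for single companion and neighbour genes were lost. Genes at a few counts, Tbx2 above all, are limited by depth: 3 counts are 0.137 to 0.220 CPM in a single library.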
